A study of Mus musculus with 8 samples.

Results

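The 6 chains that form the receptors for IFN-γ, for type I interferon and for IL-10 were followed in naive and effector CD4 T cells of the mouse. They are Ifngr1 and Ifngr2, Ifnar1 and Ifnar2, and Il10ra and Il10rb, taken by gene name from the 23284 gene symbols listed for each library. Each of the 6 was listed once, with a status of OK, in all 8 libraries. RNA was sequenced from 4 groups of 2 libraries each: naive CD4 T cells, sorted from the spleen as CD44low CD62Lhi CD4+ cells, and Th1, Th2 and Th17 cells grown from such cells for 6 days. All cells carried the DO11.10 transgene, which encodes a T cell receptor that recognizes an ovalbumin peptide. Effector cells were stimulated with that peptide on irradiated spleen cells depleted of T cells, which could leave RNA of other cells in the culture. For Th1 cells the medium held 100 U/ml of IL-12, 30 U/ml of IL-2 and 1 µg/ml of an antibody that blocks IL-4. For Th2 cells it held 100 U/ml of IL-4, the same amount of IL-2 and 10 µg/ml of an antibody that blocks IFN-γ. For Th17 cells it held IL-23, IL-1β and IL-6 (10 ng/ml of each) and the antibodies that block IL-4 and IFN-γ (10 µg/ml of each). Naive cells were neither stimulated nor cultured, so a difference between effector and naive cells holds stimulation, culture and polarization together. The labels number the 2 libraries of a group but do not say that they came from separate mice or cultures. The p-values therefore measure the spread between these libraries, which may be technical.

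The receptors belong to the class II cytokine receptor family, in which a ligand-binding chain pairs with an accessory chain and signals through Janus kinases. IFN-γ is bound by IFNGR1, which works with JAK1, while IFNGR2 brings JAK2. Type I interferons bind IFNAR2 and IFNAR1, which work with JAK1 and TYK2. IL-10 is bound by IL10RA, whereas IL10RB is shared with the receptors for IL-22 and for interferon-λ, and STAT3 is the main factor that IL-10 activates. In T helper cells the IFN-γ receptor is studied because Th1 cells make IFN-γ themselves, and low IFNGR2 has long been described in Th1 cells.

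The genes lie in 3 places on the mm10 build. Ifngr1 is at chr10:19591958-19610225 and Il10ra at chr9:45253839-45269146. The other 4 genes form a cluster of 191225 bases on chromosome 16, in the order Ifnar2 (chr16:91372783-91405587), Il10rb (chr16:91406235-91425834), Ifnar1 (chr16:91485215-91510522) and Ifngr2 (chr16:91547094-91564007). Ifnar2 and Il10rb are 647 bases apart. In the GENCODE annotation another protein-coding gene on the same strand, Gm21970, spans parts of both, so reads could be shared between these genes. Il10ra overlaps a processed pseudogene on the opposite strand, Gm20612, and the microRNA gene Mir7086. How the deposited values divided such reads was not tested.

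The promoters of Ifngr1 and Ifngr2 are shown because these genes had the largest differences of the 6 in Th1 cells, in opposite directions, and that of Ifnar2 because it held the single motif found. Each is the 250 bases before the RefSeq start of the gene, from the C57BL/6J reference (GRCm38.p6), on the plus strand. They cover chr10:19591699-19591948 for Ifngr1, chr16:91546809-91547058 for Ifngr2 and chr16:91372533-91372782 for Ifnar2. Capitals mark the letters of the GAS motif, the interferon-gamma activated site, searched as TTCNNNGAA, which reads the same on both strands.
Ifngr1: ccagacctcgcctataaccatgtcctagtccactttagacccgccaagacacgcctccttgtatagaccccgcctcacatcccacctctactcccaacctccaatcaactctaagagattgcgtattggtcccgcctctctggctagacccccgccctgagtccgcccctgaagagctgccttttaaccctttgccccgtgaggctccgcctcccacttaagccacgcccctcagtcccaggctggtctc
Ifngr2: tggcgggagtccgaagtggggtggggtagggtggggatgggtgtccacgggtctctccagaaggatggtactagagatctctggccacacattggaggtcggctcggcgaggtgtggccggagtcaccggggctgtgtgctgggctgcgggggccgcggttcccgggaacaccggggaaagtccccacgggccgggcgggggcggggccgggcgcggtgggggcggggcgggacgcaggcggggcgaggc
Ifnar2: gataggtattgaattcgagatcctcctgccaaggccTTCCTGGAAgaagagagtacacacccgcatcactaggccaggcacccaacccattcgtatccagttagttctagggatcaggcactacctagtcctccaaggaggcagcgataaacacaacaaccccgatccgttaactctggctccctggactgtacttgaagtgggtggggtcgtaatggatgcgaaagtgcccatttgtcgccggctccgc
The match in the Ifnar2 promoter, TTCCTGGAA, lay from 214 to 206 bases before the start. Of 32851 mouse promoters of the same length, 7.02% held this motif. The core of the interferon-stimulated response element, searched on both strands as GAAA and GAAA with any 2 bases between them, was found in 2.98% of promoters and in none of the 4 available here, which include that of Ifnar1. The Ifngr2 promoter had a GC content of 74% with 25 CG dinucleotides, against 59.2% with 11 for Ifngr1 and 54% with 11 for Ifnar2. The medians over all promoters were 52.4% and 6. These windows are a description of letters only. The RefSeq table used here gave no promoter for Il10ra or Il10rb.

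Markers of the subsets were highest in the libraries labelled with them. The Th1 markers Tbx21 and Ifng summed to 665 to 847 FPKM in Th1 cells and to at most 3.85 elsewhere. The Th2 markers summed to 373 to 406 FPKM in Th2 cells, against 6.70 to 26.2 elsewhere. Il17a, a defining cytokine of Th17 cells, was at 347.2 and 335.3 FPKM in Th17 libraries and at most 0.711 elsewhere. Depth, as the number of fragments that the deposited confidence intervals imply, was 14463538 to 21058108 a library. Markers of other cells were low beside the T cell markers Cd3e, Cd3d and Cd4, which summed to 586 to 1003 FPKM. The 4 B cell markers summed to 2.15 to 11.4 FPKM, lowest in Th1 cells. The 3 macrophage and monocyte markers in the files summed to 10.0 to 11.0 FPKM in naive, 6.95 to 7.32 in Th1, 13.1 to 21.4 in Th2 and 14.5 to 14.7 in Th17 cells. Neutrophil and precursor markers summed to 6.52 to 7.65 FPKM in replicate 1 of each effector group and to at most 0.545 in replicate 2, with S100a9 at 0 in all effector libraries. Cd8b1 and Cd8a summed to 54.5 to 93.4 FPKM in naive cells and 8.94 to 12.95 in effector cells. Most of this was Cd8b1, at 90.5 and 52.8 FPKM in naive libraries. Cd8a was at 2.94 and 1.77 FPKM there and at most 0.268 in effector libraries. The part of these cells in the results was not tested. In such bulk libraries, fewer cells of a type and less RNA per cell cannot be told apart.

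The first comparison asked how the receptor chains of each effector subset differed from those of naive cells. Effector cells of all 3 kinds had less Ifngr2, Ifnar1 and Il10rb RNA and more Il10ra RNA than naive cells. Ifngr1 rose in Th1 cells and fell in Th2 cells, and Ifnar2 rose in Th2 cells. Differences were tested with limma on log2(FPKM + 1) over 11198 genes with a mean of at least 1 FPKM, a filter that all 6 chains passed, and an adjusted p under 0.05 counted as a change. Of the 6 chains, 5 changed in Th1 cells (2 higher and 3 lower), against 67.3% of all tested genes. In Th2 cells all 6 changed (2 higher and 4 lower), against 70.5% of tested genes. In Th17 cells 4 changed (1 higher and 3 lower), against 67.3%. With that many genes changing, the counts of chains are near the background and are no result about the receptors, while the directions and sizes are given for each chain. The median difference of the 6 chains was -0.47 for Th1, -0.69 for Th2 and -0.44 for Th17 cells, beside -0.01, -0.11 and 0.08 over all tested genes.

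**Figure D1:**
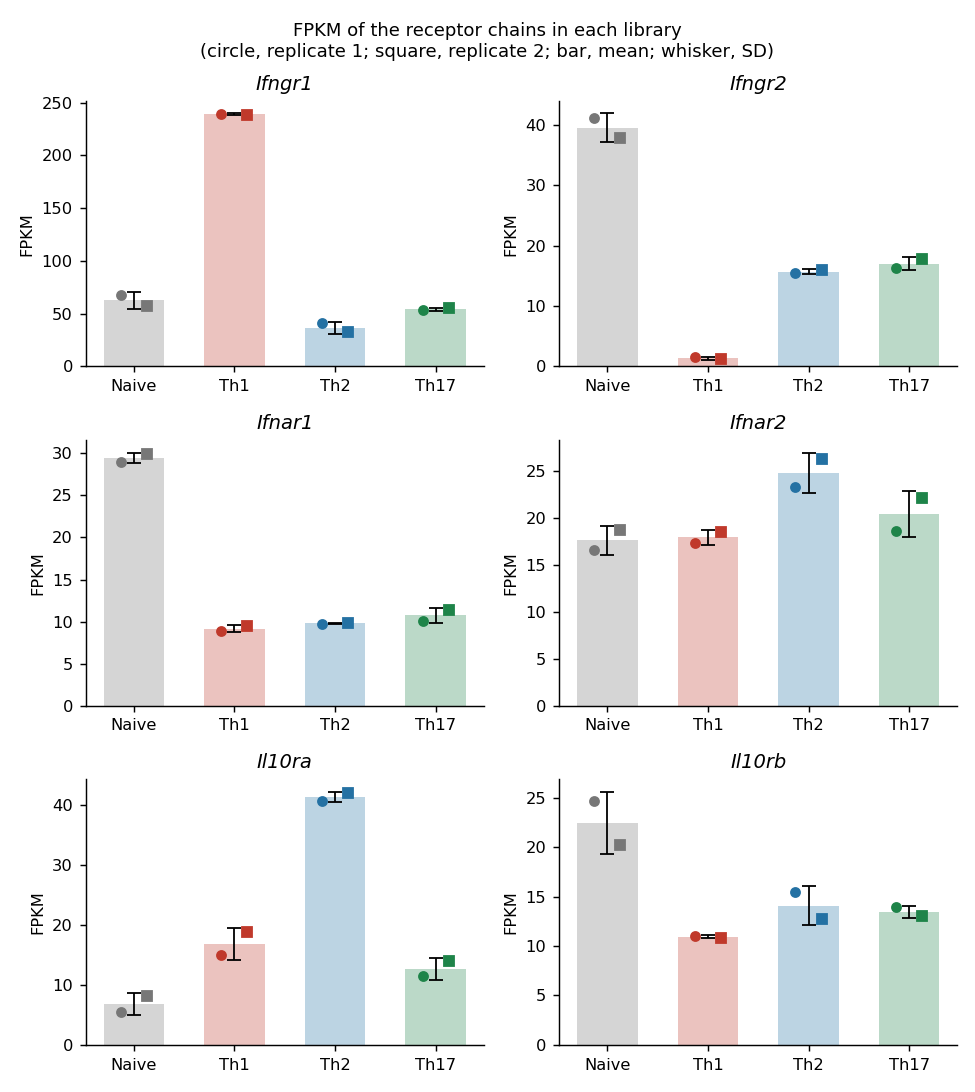
FPKM of the 6 receptor chains (vertical axes, each from 0) in naive, Th1, Th2 and Th17 cells. Circles and squares are replicates 1 and 2, bars are means and whiskers SDs (n = 2). Ifngr1 stood near 239 FPKM in both Th1 libraries while Ifngr2 stood at 1.55 and 1.19 there, and Il10ra was highest in Th2 cells.

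Ifngr1, the chain that binds IFN-γ, had the highest FPKM of the 6 chains in naive, Th1 and Th17 libraries and in 1 Th2 library. In the other Th2 library Il10ra had the highest. The level of Ifngr1 was 68.2 and 57.1 FPKM in the naive libraries (62.6 ± 7.796, SD, n = 2) and 240 and 238 FPKM in the Th1 libraries (239 ± 0.909, SD, n = 2). It was 40.9 and 32.8 FPKM in the Th2 libraries (36.8 ± 5.75, SD, n = 2) and 53.3 and 55.5 FPKM in the Th17 libraries (54.4 ± 1.51, SD, n = 2). Both Th1 libraries lay far above all others, both Th2 libraries lay below all others, and the Th17 values lay below both naive values. The mean in Th1 cells was 3.81-fold that of naive cells, a difference of 1.92 on the log2 scale (SE 0.14, limma adjusted p = 2.24e-05). In Th2 cells Ifngr1 fell by 0.75 on that scale (SE 0.14, limma adjusted p = 0.00207). The Th17 difference from naive of -0.20 did not pass the test (limma adjusted p = 0.239), with a 95% interval from -0.52 to 0.13. The order of the levels was therefore Th1, naive, Th17 and Th2, with naive and Th17 not told apart.

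Ifngr2, the accessory chain that brings JAK2 to the IFN-γ receptor, showed the largest difference of any chain. It was at 41.2 and 37.8 FPKM in naive libraries (39.5 ± 2.37, SD, n = 2) and at 1.55 and 1.19 FPKM in Th1 libraries (1.37 ± 0.254, SD, n = 2). It was at 15.4 and 15.98 FPKM in Th2 libraries (15.7 ± 0.381, SD, n = 2) and at 16.2 and 17.8 FPKM in Th17 libraries (17.0 ± 1.12, SD, n = 2). Naive libraries were highest, Th1 libraries lowest, and those of Th2 and Th17 cells lay between and next to each other. The Th1 values rest on about 89 and 65 fragments, as the deposited intervals imply, so that chain was detected in both Th1 libraries. The naive mean was 28.8-fold the Th1 mean, and the difference of -4.10 on the log2(FPKM + 1) scale (SE 0.11, limma adjusted p = 3.42e-07) ranked 38 from the lowest among 11198 genes. Since 1 is added to each value, this difference understates the change of a gene at so low a level. With 0.1 added in place of 1 it was -4.76. Ifngr2 also fell by 1.28 in Th2 cells (SE 0.11, limma adjusted p = 4.47e-05) and fell by 1.17 in Th17 cells (SE 0.11, limma adjusted p = 7.48e-05).

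Ifnar1, the chain of the type I interferon receptor that works with TYK2, fell by similar amounts in the 3 effector subsets. Its level was 29.0 and 29.9 FPKM in naive libraries (29.4 ± 0.638, SD, n = 2) and 8.86 and 9.47 FPKM in Th1 libraries (9.17 ± 0.429, SD, n = 2). It was 9.71 and 9.84 FPKM in Th2 libraries (9.77 ± 0.0900, SD, n = 2) and 10.1 and 11.4 FPKM in Th17 libraries (10.8 ± 0.895, SD, n = 2). No effector library came near the naive libraries, and the effector groups lay close to each other in the order Th1, Th2 and Th17, without overlap. The naive mean was 3.21-fold that of Th1, 3.01-fold that of Th2 and 2.74-fold that of Th17 cells. On the log2 scale the differences from naive cells were -1.58, -1.50 and -1.38 (SE 0.09 each, limma adjusted p = 7.93e-06, 8.61e-06 and 1.37e-05).

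Ifnar2, the high-affinity chain of the same receptor, had the smallest differences from naive cells of the 6 chains in Th1 and in Th2 cells. It was at 16.5 and 18.7 FPKM in naive libraries (17.6 ± 1.51, SD, n = 2) and at 17.4 and 18.4 FPKM in Th1 libraries (17.9 ± 0.766, SD, n = 2). It was at 23.2 and 26.3 FPKM in Th2 libraries (24.8 ± 2.16, SD, n = 2) and at 18.6 and 22.1 FPKM in Th17 libraries (20.3 ± 2.44, SD, n = 2). Both Th1 values lay between the naive values, the Th17 values overlapped those of naive cells, and both Th2 values lay above all others. Ifnar2 rose by 0.47 in Th2 cells (SE 0.12, limma adjusted p = 0.0104). Without naive replicate 1 or without Th2 replicate 2 the difference was 0.39 and no longer passed the test (limma adjusted p = 0.0589 and 0.0628). The Th1 difference of 0.03 (SE 0.12, limma adjusted p = 0.865) had a 95% interval from -0.26 to 0.31. The Th17 difference of 0.20 (SE 0.12, limma adjusted p = 0.183) passed in the fit that blocks on replicate number (limma adjusted p = 0.0445).

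Il10ra, the chain that binds IL-10, was the chain that was higher than in naive cells in all 3 subsets. Its level was 5.55 and 8.07 FPKM in naive libraries (6.81 ± 1.79, SD, n = 2) and 14.98 and 18.8 FPKM in Th1 libraries (16.9 ± 2.67, SD, n = 2). It was 40.7 and 41.9 FPKM in Th2 libraries (41.3 ± 0.862, SD, n = 2) and 11.4 and 13.9 FPKM in Th17 libraries (12.6 ± 1.77, SD, n = 2). The groups did not overlap, with naive lowest, then Th17, Th1 and Th2 cells. Relative to naive cells the mean was 2.48-fold in Th1, 6.06-fold in Th2 and 1.86-fold in Th17 cells. The differences were 1.21, 2.46 and 0.82 on the log2 scale (SE 0.18 each, limma adjusted p = 0.00102, 2.57e-05 and 0.00639). Macrophages and dendritic cells also express this gene. Of the 3 macrophage and monocyte markers measured, Lyz2 made up most of the sum and rose in Th2 cells, Cd14 rose in Th1 and Th17 cells (from 0.339 FPKM in naive to 2.75 for Th1), and Csf1r fell in every subset. The summed dendritic cell markers, at 0.708 and 0.815 FPKM in naive libraries, were higher in all 3 subsets, as Il10ra was. They were at 1.36 and 1.22 for Th1, 3.90 and 3.88 for Th17 and 2.82 and 2.72 for Th2 libraries. Itgax, the only one of these 4 that passed the filter, fell in Th1 cells (0.613 FPKM in naive, 0.130 for Th1). Itgax was higher in Th2 and Th17 cells (2.26 and 1.62 FPKM), the groups through which it passed the filter. Like Il10ra, it was highest in Th2 cells. The part of these cells in the Il10ra values was not tested.

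Il10rb, the accessory chain shared with the IL-22 receptor, ran opposite to its partner against naive cells. It was at 24.7 and 20.2 FPKM in naive libraries (22.4 ± 3.15, SD, n = 2) and at 11.0 and 10.8 FPKM in Th1 libraries (10.9 ± 0.154, SD, n = 2). It was at 15.5 and 12.7 FPKM in Th2 libraries (14.1 ± 1.94, SD, n = 2) and at 13.9 and 13.03 FPKM in Th17 libraries (13.5 ± 0.615, SD, n = 2). Naive libraries were highest and Th1 libraries lowest, and the Th17 values lay between the Th2 values. Its differences on the log2 scale were -0.97 for Th1, -0.64 for Th2 and -0.69 for Th17 cells (SE 0.13 each, limma adjusted p = 0.000534, 0.00382 and 0.00275).

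The second comparison asked how the effector subsets differed from each other. The subsets differed most in Ifngr1 and Ifngr2, by which Th1 cells stood apart, and in Il10ra, by which Th2 cells stood apart. Between Th1 and Th2 cells 4 of the 6 chains changed (1 higher and 3 lower in Th1), against 44.3% of tested genes. Between Th17 and Th2 cells 2 chains changed (1 higher and 1 lower in Th17), against 43.6% of tested genes, 31.7% higher and 12% lower. Between Th1 and Th17 cells 2 chains changed (1 higher and 1 lower in Th1), against 25.1%. With 6 chains, these counts too are no result about the receptors. The median difference of the chains was -0.39, 0.03 and -0.19, beside 0.11, 0.18 and -0.08 over all tested genes. These comparisons share libraries with each other, so their counts are not independent. Of all genes called between Th17 and Th2 cells, 72.6% were higher in Th17, but 53.3% with each library scaled to its median and 50.7% after quantile normalization. Of those called between Th1 and Th2 cells 61.8% were higher in Th1, but 52.8% and 50.9% with these scalings, and between Th1 and Th17 cells 36.5%, 48.1% and 49.7%.

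In Th1 cells the mean of Ifngr1 was 6.49-fold that of Th2 and 4.39-fold that of Th17 cells, differences of 2.67 and 2.12 (SE 0.14 each, limma adjusted p = 1.69e-05 and 8.51e-05). Ifngr2 went the other way, with Th2 and Th17 means 11.5-fold and 12.4-fold the Th1 mean. Its differences were -2.82 and -2.93 (SE 0.11 each, limma adjusted p = 5.86e-06 and 9.16e-06). Between Th17 and Th2 cells Ifngr1 was higher by 0.56 in Th17 cells (SE 0.14, limma adjusted p = 0.0161), while Ifngr2 differed by 0.11 (95% interval -0.15 to 0.36, limma adjusted p = 0.452). The Ifngr1 difference between Th17 and Th2 cells no longer passed without either Th17 library, without Th2 replicate 2, or with each library scaled to its median (limma adjusted p = 0.0555, 0.0834, 0.0833 and 0.0612).

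Ifnar1 did not differ past the test between any of the subsets, with differences of -0.08, 0.12 and -0.21 for Th1 against Th2, Th17 against Th2 and Th1 against Th17 (SE 0.09 each, limma adjusted p = 0.486, 0.305 and 0.149). Ifnar2 was lower in Th1 than in Th2 cells by a difference of -0.45 (SE 0.12, limma adjusted p = 0.0228). That call was lost without either Th1 library or without Th2 replicate 2 (limma adjusted p = 0.106, 0.072 and 0.123), and with no filter on low values (0.0562). For Th17 against Th2 cells the Ifnar2 difference of -0.27 missed the threshold (limma adjusted p = 0.108), but passed with the replicate block, median scaling or quantile normalization (limma adjusted p = 0.0205, 0.0186 and 0.017).

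Il10ra was lower in Th1 and in Th17 than in Th2 cells, by differences of -1.25 and -1.64 (SE 0.18 each, limma adjusted p = 0.00197 and 0.0008). Between Th1 and Th17 cells its difference of 0.39 had a 95% interval from -0.05 to 0.83 and did not pass (limma adjusted p = 0.186), but did with the replicate block (limma adjusted p = 0.0409). Il10rb differed by -0.33 between Th1 and Th2, -0.05 between Th17 and Th2 and -0.28 between Th1 and Th17 cells (SE 0.13 each), none of which passed (limma adjusted p = 0.0785, 0.762 and 0.178). The first of these passed with the replicate block (limma adjusted p = 0.0232).

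**Figure D2:**
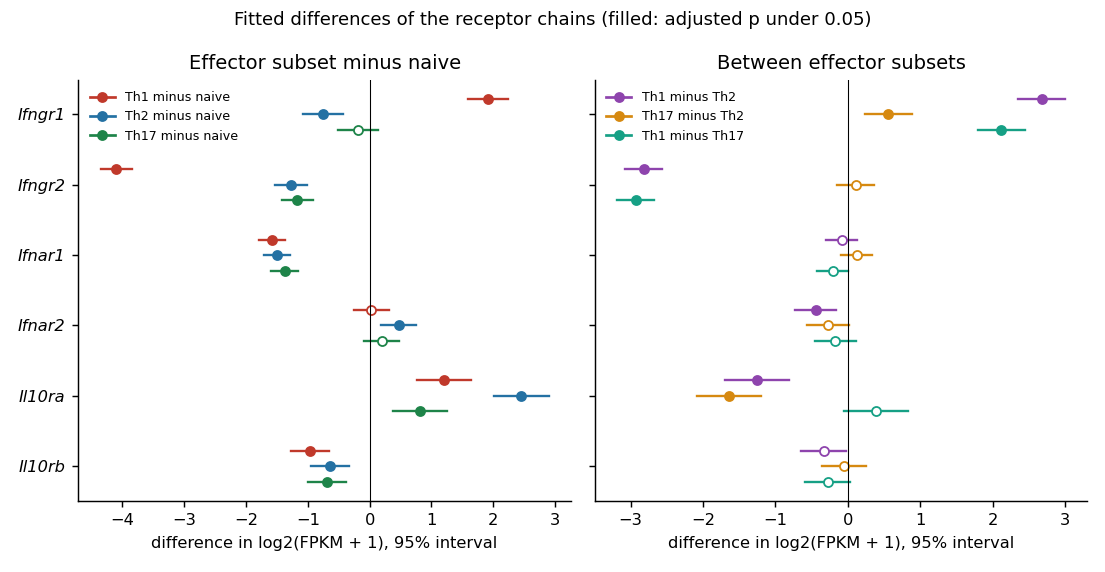
Fitted differences of the 6 chains in log2(FPKM + 1) (horizontal axes), with 95% intervals, for effector minus naive cells (left) and between effector subsets (right). Filled points have an adjusted p under 0.05. Ifngr1 and Ifngr2 in Th1 cells lie on opposite sides of 0 at 1.92 and -4.10, while the 3 points of Ifnar1 against naive cells lie together between -1.58 and -1.38.

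Since FPKM is scaled by gene length, the RNA of the paired chains can be set side by side within a library. Such ratios rest on the lengths used and on how reads shared between genes were divided. The chains of each receptor did not keep one ratio across the groups. These ratios are given as values and were not tested. Ifngr1 was 1.66 and 1.51 times Ifngr2 in naive libraries and 154 and 200 times Ifngr2 in Th1 libraries. In Th2 libraries that ratio was 2.65 and 2.05, and in Th17 libraries 3.29 and 3.11. Every effector library had a higher ratio than both naive libraries, and the Th1 libraries lay far above the rest.

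The ratio of Ifnar1 to Ifnar2 was 1.76 and 1.60 in naive libraries. It was 0.511 and 0.514 in Th1, 0.543 and 0.516 in Th17 and 0.418 and 0.374 in Th2 libraries. By FPKM the higher chain was thus Ifnar1 in naive and Ifnar2 in effector libraries. In naive replicate 1, Ifnar1 rests on about 4526 implied fragments and Ifnar2 on about 321, so this order depends much on the lengths used. The ratio of Il10ra to Il10rb was 0.225 and 0.400 in naive, 1.36 and 1.73 in Th1, 0.820 and 1.07 in Th17 and 2.63 and 3.30 in Th2 libraries. By FPKM the ligand-binding chain was the lower in naive cells and the higher in Th1 and Th2 cells.

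**Figure D3:**
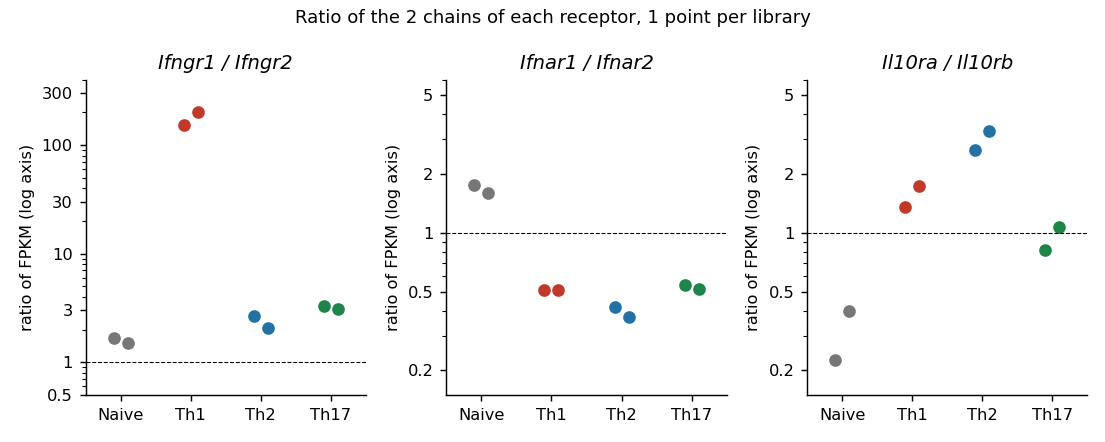
Ratio of the FPKM of the paired chains of each receptor (log axes), with 1 point per library for naive, Th1, Th2 and Th17 cells. The dashed line marks a ratio of 1. The IFN-γ receptor ratio was 154 and 200 in Th1 libraries and at most 3.29 elsewhere.

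The cluster on chromosome 16 was then compared with its neighbours, since 4 of the 6 chains lie there. The 4 clustered genes did not move as a block, because the other 3 fell in each subset while Ifnar2, at one end, rose in Th2 cells and had differences of 0.03 and 0.20 in Th1 and Th17 cells. Within 500000 bases of the cluster the files list 16 other genes, of which 12 passed the filter. Against naive cells 3 of these 12 rose and 6 fell in Th1, 4 rose and 5 fell in Th2, and 5 rose and 4 fell in Th17 cells. Their median differences were -0.15, 0.11 and 0.05. Of all tested genes, 33.8% rose and 33.5% fell in Th1, 31.8% rose and 38.7% fell in Th2 and 37.5% rose and 29.8% fell in Th17 cells.

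Tmem50b, a gene of a membrane protein 10500 bases beyond Ifngr2, was the neighbour with the lowest Th1 difference. Its level was 19.8 and 17.2 FPKM in naive, 4.46 and 3.27 in Th1, 11.5 and 11.2 in Th17 and 10.9 and 11.5 in Th2 libraries. Like Ifngr2, it was highest in naive and lowest in Th1 cells. Its differences were -2.01 for Th1, -0.67 for Th2 and -0.65 for Th17 cells (SE 0.14 each, limma adjusted p = 1.75e-05, 0.00352 and 0.00436). On the other side of the cluster, Gcfc1 was at 25.5 ± 3.22 FPKM in naive, 29.4 ± 5.70 for Th1, 426 ± 27.5 for Th2 and 85.9 ± 14.6 for Th17 cells (SD, n = 2 each). It rose by 4.02 in Th2 and by 1.71 in Th17 cells (SE 0.18 each, limma adjusted p = 2e-06 and 0.000143). The neighbouring genes, 4932438H23Rik and 4930404I05Rik, were also highest in Th2 cells, at 63.9 ± 6.35 and 50.5 ± 2.61 FPKM (SD, n = 2), against 0.0883 ± 0.0503 and 4.89 ± 0.586 in naive cells. The listed position of 4930404I05Rik overlaps that of Gcfc1, so reads could be shared between these genes, which was not tested.

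**Figure D4:**
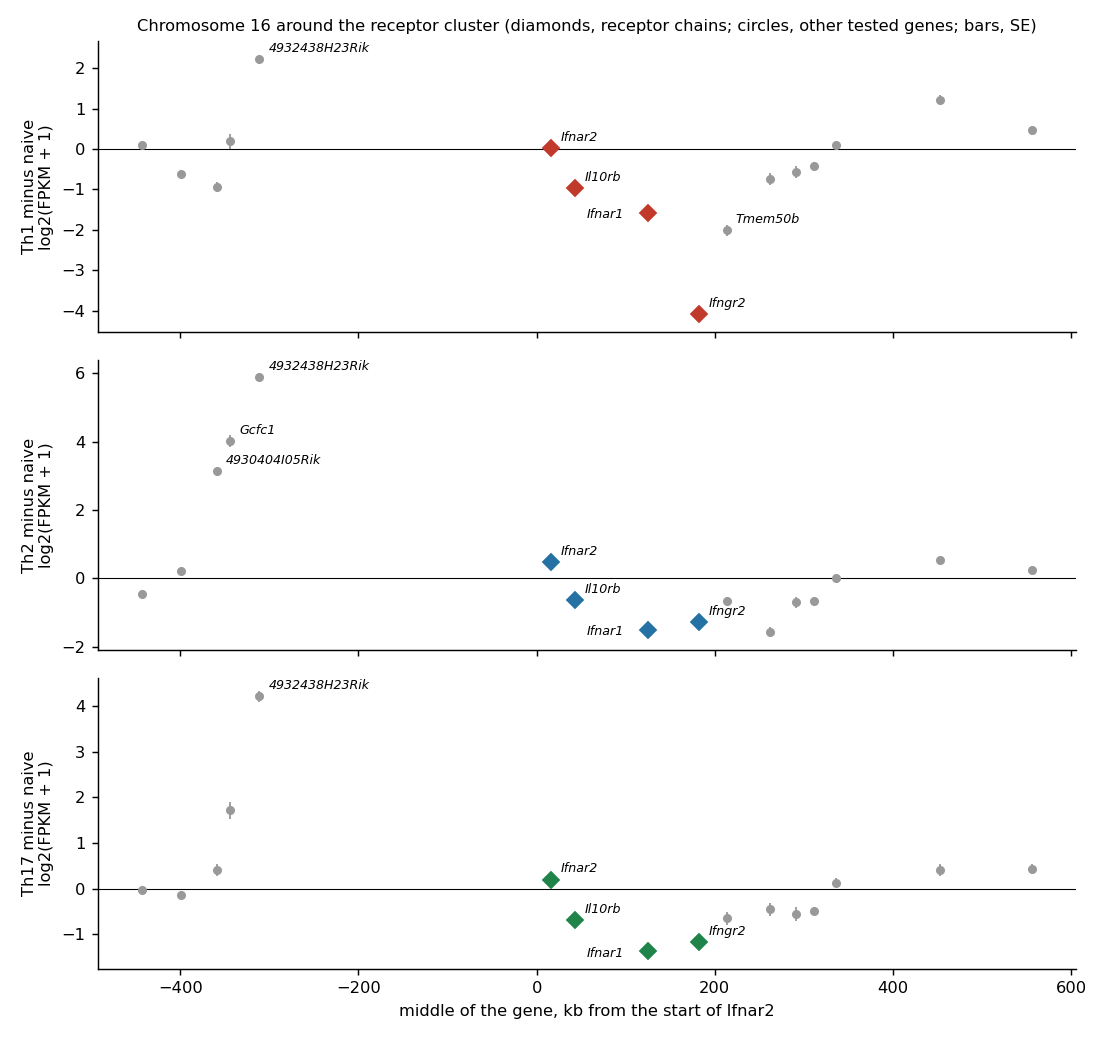
Differences from naive cells in log2(FPKM + 1) (vertical axes; bars are SEs) of tested genes on chromosome 16, by the distance of the middle of the gene from the start of Ifnar2 in kb. Diamonds are receptor chains and circles other genes, with Th1, Th2 and Th17 cells from top to bottom. In the Th1 panel Ifngr2 at -4.10 and Tmem50b at -2.01 are the lowest points.

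For each chain the 3 tested genes with the most similar pattern were listed by Pearson's r of log2(FPKM + 1) over the 8 libraries. As the libraries fall into 4 groups, such an r mainly follows the group means, and it is given as a description. For Ifngr1 they were Glipr1 (r = 0.990), Fbxo28 (0.988) and Tmed8 (0.987). Glipr1 was at 116 and 111 FPKM in Th1 libraries and at 27.1 to 51.4 elsewhere. For Ifngr2 they were Cd72, Ttc27 and the neighbour Tmem50b, with r from 0.994 to 0.995. For Ifnar1 they were Cxxc1, a protein of histone methyltransferase complexes, Dapl1, and Smad7, an inhibitor of TGF-β signals, with r from 0.997 to 0.998. Cxxc1 was at 58.4 to 58.8 FPKM in naive and 19.8 to 25.8 FPKM in effector libraries. For Ifnar2 the values were lower, with Setd5 at r = 0.980, Kdm5b at 0.974 and Fbxo21 at 0.974. For Il10ra they were Tspan5, Snx18 and 1110031I02Rik (r from 0.991 to 0.992), and for Il10rb 1500011B03Rik, Mllt11 and Gm17455 (r from 0.989 to 0.996).

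Among the ligands, Ifng was highest in the cells with the least Ifngr2 RNA. Ifng was at 802 and 614 FPKM in Th1 libraries and at 0 to 2.19 in all others, a rise of 9.05 over naive cells (SE 0.35, limma adjusted p = 1.32e-06). Il10 was at 43.7 and 38.1 FPKM in Th1 and 160 and 116 in Th2 libraries, against 0.901 and 0.827 in Th17 and 0 and 0.0796 in naive libraries. The Il10 differences from naive cells were 5.33, 7.05 and 0.84 for Th1, Th2 and Th17 cells (SE 0.16 each, limma adjusted p = 4.66e-07, 1.62e-07 and 0.00264), the last of which did not pass after quantile normalization (limma adjusted p = 0.515). Th2 cells thus held the highest Il10 and the highest Il10ra values. Il22, whose receptor uses IL10RB, was at 238 and 420 FPKM in Th17 libraries and at most 1.71 elsewhere. Of the 15 ligand genes listed, 13 were in the files under these names and 5 passed the filter (Ifng, Il10, Il19, Il22 and Il24). Of those 5, 4 rose in each effector subset and none fell, other than 1 in Th2 cells after quantile normalization. Of all tested genes 33.8%, 31.8% and 37.5% rose in Th1, Th2 and Th17 cells. But all 5 had naive means of at most 0.328 FPKM and passed the filter through effector libraries. A fall from naive cells could thus hardly appear, so these counts are no result about the ligands and the shares no fair background. The type I interferon genes Ifnb1, Ifna1, Ifna2, Ifna4 and Ifna5 were listed at 0 in all 8 libraries.

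Of 6 other receptor chains of the family, 5 were in the files under these names and only F3, tissue factor, passed the filter. F3 was listed at 0 in both naive libraries. In Th2 libraries F3 was at 2.74 and 6.23 FPKM, where it rose (limma adjusted p = 0.000463). In Th17 libraries it was at 1.26 and 0.768 FPKM, where it also rose (limma adjusted p = 0.0272). F3 passed the filter through its Th2 libraries, and a fall from 0 could not appear. The direction of these differences was thus fixed in advance, and they are no result about F3. The Th17 call of F3 was lost without any 1 of the 4 libraries compared (limma adjusted p from 0.0502 to 0.131), with no filter on low values (0.102) and after quantile normalization (0.185). Il22ra1, the chain that pairs with IL10RB for IL-22, was listed at 0 in all 8 libraries. Il20ra reached at most 1.09 FPKM and Il20rb at most 0.619.

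Among the signal carriers, Jak1, used by all 3 receptors, fell from 148 ± 8.89 FPKM in naive to 64.9 ± 5.78 for Th1, 49.7 ± 3.80 for Th2 and 52.6 ± 4.74 for Th17 cells (SD, n = 2 each). Its differences were -1.18, -1.55 and -1.47 (SE 0.12 each, limma adjusted p = 0.000128, 2.71e-05 and 3.71e-05). Jak2, the partner of IFNGR2, was at 20.6 and 21.2 FPKM in Th1 libraries and 21.4 and 24.6 in naive libraries. It rose by 1.61 in Th2 and 1.03 in Th17 cells (SE 0.14 each, limma adjusted p = 5.42e-05 and 0.000561). Stat3, the factor of IL-10, rose by 1.12 in Th2 and 0.78 in Th17 cells (SE 0.18 each, limma adjusted p = 0.00133 and 0.00781; 0.0535 in Th17 without Th17 replicate 2), and its Th1 difference of -0.04 did not pass (limma adjusted p = 0.857).

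Of 7 inhibitors, 2 rose and 3 fell in Th1, 3 rose and 4 fell in Th2, and 2 rose and 3 fell in Th17 cells. Of all tested genes 33.8% rose and 33.5% fell in Th1 cells, 37.5% rose and 29.8% fell in Th17 cells, and 31.8% rose and 38.7% fell in Th2 cells. Socs1, which blocks JAK activity downstream of interferon receptors, rose from 35.2 ± 0.346 FPKM in naive to 132 ± 12.6 for Th1, 198 ± 50.2 for Th2 and 162 ± 22.4 for Th17 cells (SD, n = 2 each). Its differences were 1.87, 2.43 and 2.16 (SE 0.19 each, limma adjusted p = 0.000129, 2.96e-05 and 5.66e-05). Socs3, induced by STAT3, rose by 1.27 in Th2 cells (SE 0.11, limma adjusted p = 4.58e-05) and fell by 0.45 in Th1 cells (SE 0.11, limma adjusted p = 0.00867; 0.0538 without Th1 replicate 1). Usp18, which binds IFNAR2 and dampens type I interferon signals, fell in all subsets, with differences of -2.18, -2.54 and -3.44 in Th1, Th2 and Th17 cells (SE 0.28 each, limma adjusted p = 0.000466, 0.00019 and 4.32e-05).

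Of 18 target genes of these cytokines, 14 passed the filter. The counts below are of all 14, of which Ifit1, Ifit3 and Oas2 passed only through naive libraries, so their falls were set by the filter. Mx1 passed only through naive and Th1 libraries. The filter thus favoured its falls in Th2 and Th17 cells and its higher level in Th1 than in Th2 cells. In Th1 cells 5 rose and 7 fell, in Th2 cells 2 rose and 12 fell, and in Th17 cells 2 rose and 9 fell, beside the same shares of all tested genes (33.8% and 33.5%, 31.8% and 38.7%, and 37.5% and 29.8%). The 5 became 3 without Th1 replicate 2. The median differences of all 14 were -0.21, -2.07 and -1.22. As the counts of falls and these medians include the genes fixed by the filter, they are no result about the targets as a set. Between Th1 and Th2 cells 10 were higher and none lower in Th1, beside 27.4% higher and 16.9% lower of all tested genes. With the replicate block 1 was lower. Between Th1 and Th17 cells 7 were higher and none lower in Th1, beside 9.17% and 16%. The 7 became 4 without Th1 replicate 2 or without either Th17 library, and 1 was lower with the replicate block.

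Irf8, Gbp2 and Gbp3, known targets of IFN-γ, rose in Th1 cells, the group with the least Ifngr2 RNA. Irf8, a transcription factor, was at 101 and 112 FPKM in Th1 libraries, against 3.21 and 4.62 in naive, 15.7 and 17.9 in Th2 and 12.95 in both Th17 libraries. Its Th1 difference from naive cells was 4.46 (SE 0.15, limma adjusted p = 7.18e-07). Irf8 also rose in Th2 and Th17 cells, by 1.87 and 1.52 (SE 0.15 each, limma adjusted p = 3.47e-05 and 0.000105). The GTPase gene Gbp2 was at 161 ± 23.1 FPKM in Th1, 89.1 ± 24.8 in naive, 85.3 ± 9.46 in Th17 and 18.1 ± 1.95 in Th2 cells (SD, n = 2 each). Its Th1 rise of 0.87 (SE 0.21, limma adjusted p = 0.0084) was lost without Th1 replicate 2 (limma adjusted p = 0.0543). Gbp3 rose by 1.27 in Th1 and fell by 1.93 in Th2 cells (SE 0.17 each, limma adjusted p = 0.00048 and 5.18e-05). Irf1, another known IFN-γ target, did not follow them, falling from 221 ± 17.1 FPKM in naive to 82.3 ± 9.06 for Th1, 25.3 ± 0.294 for Th2 and 19.8 ± 1.26 for Th17 cells (SD, n = 2 each). In Th1 cells Irf1 fell by 1.41 (SE 0.11, limma adjusted p = 4.21e-05). Of other listed targets, Tap1 fell by 0.47 and Psmb8 rose by 0.36 in Th1 cells (limma adjusted p = 0.0444 and 0.0403). With no filter on low values neither of these 2 passed (limma adjusted p = 0.125 and 0.0699). After quantile normalization the Psmb8 difference was 0.04 (limma adjusted p = 0.76). Tap1 did not pass in the fit of only the 2 groups compared (limma adjusted p = 0.0777), and its difference was -0.29 without naive replicate 2. The Th1 difference of Psmb9, 0.36, did not pass (limma adjusted p = 0.07).

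Irf7, Isg15, Ifit1, Ifit3 and Oas2, known targets of type I interferon, were lower than in naive cells in every subset. Ifit1, Ifit3 and Oas2 had effector means of at most 0.427 FPKM and passed the filter only through naive libraries. Their fall was thus set by the filter. Mx1 had a Th1 difference of 0.04 that did not pass (limma adjusted p = 0.933). Mx1 fell by 1.11 in Th2 and 0.92 in Th17 cells (SE 0.34 each, limma adjusted p = 0.0227 and 0.0481). Its mean was 1.83 FPKM in naive, 1.77 for Th1, 0.222 for Th2 and 0.397 for Th17 cells. Mx1 thus passed the filter only through naive and Th1 libraries, which favoured these falls. With no filter on low values neither Mx1 fall passed (limma adjusted p = 0.0942 and 0.152). Neither passed in fits of only the 2 groups compared (limma adjusted p = 0.0562 and 0.0891). Without naive replicate 2 the differences were -0.58 and -0.39. Irf7 was at 52.5 and 89.5 FPKM in naive libraries and at 6.29 and 7.83 in Th1, 3.89 and 3.42 in Th17 and 2.60 and 2.32 in Th2 libraries. Oas2, an antiviral enzyme gene, was at 7.31 and 18.9 FPKM in naive libraries and at most 0.170 in effector libraries. The differences of these first 5 genes from naive cells ran from -4.33 to -2.16. Naive replicate 2 had more of these RNAs than naive replicate 1, while Ifnar1 was at 29.0 and 29.9 FPKM in the same libraries. Bcl3, induced by IL-10, rose by 1.87, 2.25 and 2.29 in Th1, Th2 and Th17 cells (SE 0.18 each, limma adjusted p = 0.000114, 3.89e-05 and 3.72e-05).

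**Figure D5:**
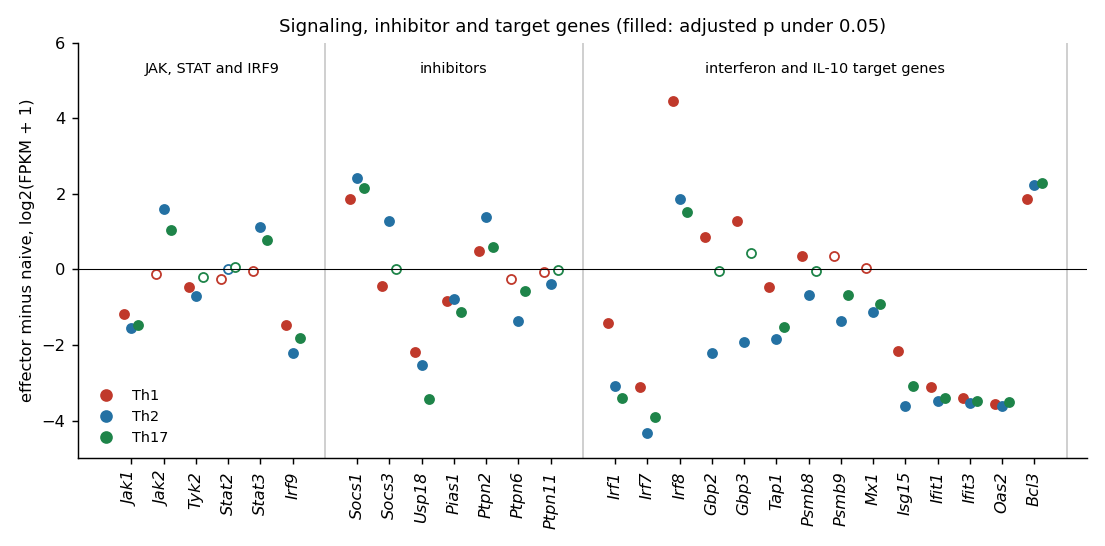
Differences from naive cells in log2(FPKM + 1) (vertical axis) of tested signal carriers, inhibitors and target genes in Th1, Th2 and Th17 cells. Filled points have an adjusted p under 0.05. Irf8 stands at 4.46 in Th1 cells, and Irf7 lies below -3 in every subset. So do Ifit1, Ifit3 and Oas2, which passed the filter only through naive libraries, so that their fall was set by it.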

How the data were processed

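RNA from 8 mouse libraries, 2 in each of 4 groups, was compared. The authors aligned reads to mm10 with Bowtie 0.12.8 and TopHat 1.3.2, and the deposited FPKM values (read fragments scaled by exon length and by library size) were made per library with Cufflinks 2.0.2. The labels name a stranded library kit and the study's methods an unstranded one, so the use of strand in counting is not known. FPKM values were summed per symbol (23746 rows, 23284 symbols) and log2(FPKM + 1) was fitted with limma 3.58.1 in R 4.3.3 (4 group means, all libraries, variance trend). Genes with a mean of at least 1 FPKM were tested (11198), with Benjamini-Hochberg adjustment over all of them and a threshold of 0.05. The deposited confidence limits were read as FPKM plus and minus 2 SD to give implied fragments. They cover counting error only, and since no counts were used, depth is known only through them.

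Libraries with the same number deviated together from their group means (r from 0.138 to 0.294 over the 6 pairs of groups), so the replicate number was also fitted as a block. Replicates of a group correlated at r from 0.953 to 0.960. Alternatives were another pseudocount, other filters and scalings, 2-group fits, no variance trend, the row with the highest mean in place of the sum, and leaving out each library. Text named all 6 chains, listed pathway genes, the 3 most similar genes for each chain and chromosome neighbours. The members and lists were chosen with earlier results of these data known. Starts in the deposited files were increased by 1, after which 11603 of 21010 equalled a RefSeq start, and promoters came from RefSeq. Protein sequences were not used here, and some listed genes are not reported here.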

Additional observations from a re-analysis of the deposited data

Results flagged for a closer look

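Effector subsets differed in how some chains stood against the shared naive libraries, by the limma test of the difference itself, and the largest such difference of each chain is given. Ifngr1 was higher in Th1 than in Th2 cells by 2.67 on the log2(FPKM + 1) scale (adjusted p = 1.69e-05), with every Th1 library above and every Th2 library below both naive libraries. Ifngr2 differed between Th1 and Th17 cells by -2.93 (adjusted p = 9.16e-06), with both below naive cells. Ifnar2 differed between Th1 and Th2 cells by -0.45 (adjusted p = 0.0228), a call lost when any of 3 of the 4 libraries compared was left out. Il10ra differed between Th17 and Th2 cells by -1.64 (adjusted p = 0.0008), with both above naive cells. Groups of 2 libraries cannot be screened for a library that stands apart.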

How the results depend on the processing

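Of 324 values of single chains under other settings, 309 had the sign and the call given above, as had 133 of 144 values with a library left out. The sign turned, for differences near 0 that did not pass, in these cases: Ifnar2 in Th1 against naive cells (-0.0575 to 0.1086 with a library left out, below 0 without naive replicate 1 or Th1 replicate 2), Il10rb in Th17 against Th2 cells (-0.1859 to 0.0776, above 0 without Th2 replicate 1), and, in Th17 against Th2 cells, Ifngr2 (-0.0669 with median scaling and -0.0516 with quantile normalization) and Ifnar1 (-0.0452 and -0.0528). The cause was not tested. The number of chains that changed between Th17 and Th2 cells was 1 to 2 with a library left out, and 3 to 4 between Th1 and Th2, 5 to 6 in Th2, and 5, 4 and 2 in the Th1, Th17 and Th1 against Th17 comparisons. With the replicate block it was 5, 6 and 5 in Th1, Th2 and Th17 against naive cells and 5, 3 and 3 in Th1 against Th2, Th17 against Th2 and Th1 against Th17, and no call of a chain changed other than the 4 given above. Ifngr1 in Th17 against naive cells passed after quantile normalization (-0.37, adjusted p = 0.0374). In Th17 against Th2 cells Ifnar2 passed with median scaling and quantile normalization (adjusted p = 0.0186 and 0.017), as did Il10rb in Th1 against Th2 cells (0.0406 and 0.0459). Median scaling moved the median of all genes from -0.11 to 0.00 in Th2 against naive cells and from 0.18 to 0.02 in Th17 against Th2 cells. Quantile normalization moved it from -0.01 to -0.13 in Th1 and from 0.08 to -0.12 in Th17 against naive cells, where the share of calls that were higher went from 55.7% to 44.2% in Th17. Of 780 counts from the pathway lists under these settings, 78 moved by over 1.5 times, for example the targets that fell in Th1 and Th17 cells, which were 4 and 5 in place of 7 and 9 with a minimum of 5 FPKM, where fewer genes were tested. The differences of Ifnar1 between subsets passed under none of these settings.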

Other observations

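Pattern similarity placed Tmem50b, the gene next to Ifngr2, among the 3 genes most like Ifngr2 of all 11198 tested (r = 0.994 over 8 libraries). The next tested genes on that side, Gart, Son and Donson, had Th1 differences from naive cells of -0.74, -0.57 and -0.41. They also fell in Th2 cells (-1.57, -0.71 and -0.67) and in Th17 cells (-0.45, -0.56 and -0.49), so their fall was not particular to Th1 cells. Cryzl1 had a Th1 difference of 0.11 that did not pass (limma adjusted p = 0.386). Itsn1 and Atp5o, further on, were higher in Th1 cells by 1.21 and 0.46 (limma adjusted p = 0.00015 and 0.00888). No explanation was tested.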
